A study of Mus musculus with 4 samples.

Results

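The Hox clusters are 4 runs of neighbouring homeobox genes, and their accessible regions were taken as every ATAC-seq peak that overlapped 1 of 4 windows of GRCm39, whatever its level. The windows ran from 52.12 to 52.25 Mb of chromosome 6 for Hoxa, from 96.07 to 96.28 Mb of chromosome 11 for Hoxb, from 102.8 to 102.97 Mb of chromosome 15 for Hoxc and from 74.48 to 74.61 Mb of chromosome 2 for Hoxd. Of the 57090 peaks of the series, 20 lay in these windows. Hoxa held 11 of them, Hoxb 6, Hoxd 2 and Hoxc 1. ATAC-seq uses a transposase that cuts accessible DNA, so the reads over a peak measure how open that region is. The experiment compared monocytes from the bone marrow of femur and mandible of C57BL/6J mice aged 2 months, with 2 libraries per skeletal site. The mice were male in the labels, whereas the study's methods give male and female mice, and no treatment was named. Each library held 20000 cells, and the femur and mandible libraries of a batch came from the same 4 pooled mice. Replicate 1 of each site was batch A and replicate 2 was batch B. The cells were the flow-through of a magnetic kit that holds back other blood cells, whereas the sample labels give the cell type as CD11b+, a surface marker of myeloid cells. The purity of the isolates was not analysed here, because the positions of marker genes on GRCm39 were not used here. In bulk libraries, a smaller share of cells with an open region and a less open region in every cell cannot be told apart.

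Hox genes encode transcription factors that tell cells where they lie along the body and the limbs. They sit in the order in which they act, from the anterior genes with low numbers to the posterior genes with high numbers, and Polycomb and trithorax proteins keep them silent or active through cell divisions. The skeleton of the jaw comes from neural crest that lacks Hox expression, while the mesenchyme of the limb uses the posterior Hoxa and Hoxd genes. Blood cells of both sites come from the same stem cells, where Hoxa and Hoxb genes support self-renewal and are turned down as myeloid cells mature. Hoxa9 sustains early myeloid progenitors, Hoxb4 expands blood stem cells when it is overexpressed, Hoxa13 and Hoxd13 shape the digits and Hoxa11 shapes the forearm. The comparison of femur with mandible therefore asks whether monocytes carry a mark of their skeletal site at genes of position.

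RefSeq on GRCm38.p6 held all 38 Hox genes listed for these windows, 10 in Hoxa, 10 in Hoxb, 9 in Hoxc and 9 in Hoxd. Of these, 11 belong to paralog groups 1 to 4 (anterior), 11 to groups 5 to 8 (central) and 16 to groups 9 to 13 (posterior). In RefSeq, Hoxa runs from Hoxa2 towards Hoxa13 with rising coordinates, whereas Hoxb, Hoxc and Hoxd run from their number 13 gene towards their anterior end. The peaks were measured on GRCm39, and no annotation of that build was used here, so a peak is given by its position and not by the Hox gene that it lies next to.

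Promoter sequences were at hand for 22 of the 38 genes, with 24 start sites, each as 250 bases before to 50 bases after the start. Of these sites, 10 were in Hoxa, 3 in Hoxb, 1 in Hoxc and 10 in Hoxd. The promoters of 4 genes, 1 from each cluster, are shown for the base composition of the start sites that the windows contain, with each CpG in capitals. Their positions are on GRCm38.p6 and cannot be set against those of the peaks.
Hoxa9, chr6:52227321-52227620, minus strand: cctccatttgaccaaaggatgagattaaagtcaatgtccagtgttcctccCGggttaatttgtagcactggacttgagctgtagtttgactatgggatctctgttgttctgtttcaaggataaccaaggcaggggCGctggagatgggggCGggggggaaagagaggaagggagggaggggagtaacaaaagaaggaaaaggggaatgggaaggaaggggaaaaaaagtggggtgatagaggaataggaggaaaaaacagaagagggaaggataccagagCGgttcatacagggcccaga
Hoxb4, chr11:96318017-96318316, plus strand: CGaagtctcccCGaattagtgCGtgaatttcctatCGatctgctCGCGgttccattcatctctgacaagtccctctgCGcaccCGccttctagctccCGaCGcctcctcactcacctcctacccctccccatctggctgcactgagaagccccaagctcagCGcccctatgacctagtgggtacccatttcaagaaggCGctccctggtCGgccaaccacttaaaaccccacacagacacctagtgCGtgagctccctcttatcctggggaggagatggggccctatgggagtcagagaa
Hoxc4, chr15:103034145-103034444, plus strand: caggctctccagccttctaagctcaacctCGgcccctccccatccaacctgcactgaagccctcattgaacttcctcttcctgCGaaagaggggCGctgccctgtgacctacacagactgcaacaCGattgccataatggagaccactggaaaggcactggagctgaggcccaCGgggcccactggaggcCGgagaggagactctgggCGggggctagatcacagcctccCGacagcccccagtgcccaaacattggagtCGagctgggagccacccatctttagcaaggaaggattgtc
Hoxd13, chr2:74667975-74668274, plus strand: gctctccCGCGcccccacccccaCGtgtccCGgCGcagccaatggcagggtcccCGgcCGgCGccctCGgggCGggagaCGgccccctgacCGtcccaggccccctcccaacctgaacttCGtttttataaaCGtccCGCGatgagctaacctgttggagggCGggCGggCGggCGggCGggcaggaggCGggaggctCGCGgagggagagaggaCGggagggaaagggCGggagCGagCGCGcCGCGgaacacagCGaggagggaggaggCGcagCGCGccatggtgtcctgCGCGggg

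CpG dinucleotides, which are dense in promoters held by Polycomb or trithorax proteins, numbered 4 in the Hoxa9 promoter, 14 in Hoxb4, 9 in Hoxc4 and 37 in Hoxd13. Over the 24 Hox promoters the count ranged from 4 to 45 with a median of 14.5, and the median over all 32851 promoters was 7. The letters TAATTA, a core that many HOX proteins bind, were found on either strand in 2 of the 24 Hox promoters, 8.33%, both of them starts of Hoxd11, and in 5.29% of all promoters. GAGGAAGT, a site of the monocyte factor PU.1, was found on either strand in 1 Hox promoter, that of Hoxc4, and in 3.20% of all promoters. These matches describe the letters only.

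The clusters also hold microRNA genes, shown because copies in different clusters share a seed (bases 2 to 8, in capitals). Mir196b lies in Hoxa, Mir196a-1 and Mir10a in Hoxb, Mir196a-2 and Mir615 in Hoxc and Mir10b in Hoxd. The libraries measured DNA, so no level of these microRNAs is given.
mmu-miR-10a-5p: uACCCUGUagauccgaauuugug
mmu-miR-10b-5p: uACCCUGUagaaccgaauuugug
mmu-miR-196a-5p: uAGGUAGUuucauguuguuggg
mmu-miR-196b-5p: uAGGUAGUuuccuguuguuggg

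The libraries held 27464565 to 75294068 counts in peaks, and femur replicate 2 was the deepest. The 20 Hox peaks took 6712 and 14316 counts in femur replicates 1 and 2, and 4927 and 4554 in those of mandible. This was 0.0152%, 0.0190%, 0.0154% and 0.0166% of the counts of each library, in the same order, so the share was highest in femur replicate 2. Single Hox peaks had from 41 to 1813 counts in a library, and none was lost to the filter on low counts. Levels below are CPM, read counts scaled to 1000000 reads of the library after loess normalization, and a level per kb is the CPM divided by the length of the peak.

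Hoxa was the cluster with the most accessible regions, and Hoxc had nearly none. The density was 0.846 peaks per 10 kb in Hoxa, 0.286 in Hoxb, 0.154 in Hoxd and 0.0588 in Hoxc. Windows of 130 kb laid end to end over the genome had as many peaks as Hoxa or more in 7.99% of cases. For the 6 peaks of Hoxb, the share of windows of 210 kb with as many was 30.0%, and for the 2 peaks of Hoxd and the 1 of Hoxc, with windows of their own lengths, it was 39.3% and 51.7%. The peaks covered 3.00% of the Hoxa window, 1.74% of Hoxb, 0.736% of Hoxd and 0.114% of Hoxc. In the neighbouring windows of equal length, 1 peak lay below Hoxa and 2 above it, 3 below Hoxb and 0 above it, 3 below Hoxd and 1 above it, and 5 below Hoxc and 8 above it. Hoxa and Hoxb thus had more peaks than either of their neighbouring windows, and Hoxc had fewer.

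**Figure D1:**
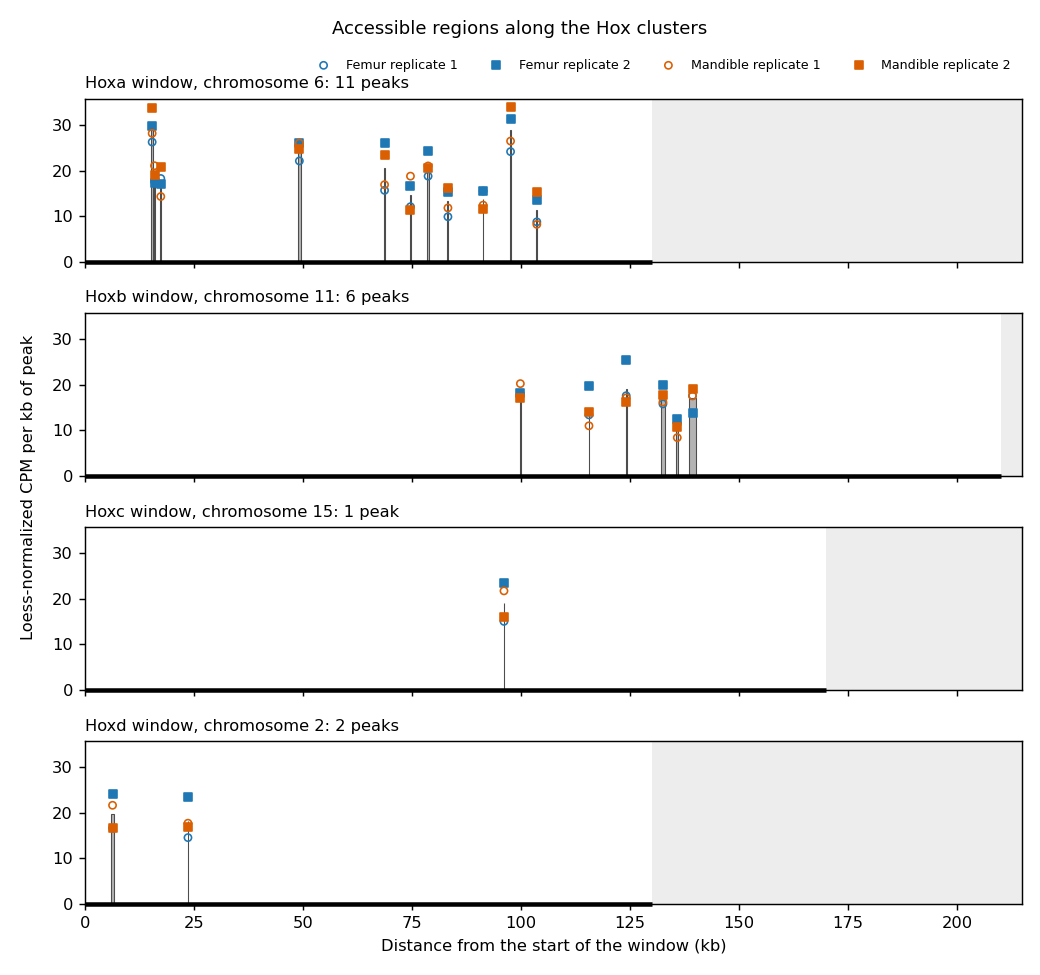
Position of the 20 Hox peaks in the 4 windows, as distance in kb from the start of each window, against CPM per kb of peak. Bars are drawn to the width of the peak and give the mean of 4 libraries, points give single libraries, the black line marks the window and grey lies outside it. Hoxa holds 11 peaks, while Hoxd has 2 peaks near its start and Hoxc has 1 near 96.0 kb.

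Within Hoxa, the peaks fell into separate stretches. The first 20 kb of the window, on the side of the anterior genes in RefSeq's order, held 3 peaks, Peak_43963, Peak_43964 and Peak_43965. After a gap of 31.4 kb, the widest in the window, a single peak followed, Peak_43966. Between 60 and 110 kb there were 7 peaks, from Peak_43967 to Peak_43973. No peak lay in the last 26.3 kb of the window, on the side of the posterior genes. In Hoxb all 6 peaks lay within 40.5 kb, and the first 99.7 kb, on the side of Hoxb13, held none. The last 69.8 kb of Hoxb, on the side of the anterior genes, were also without a peak. In Hoxd both peaks lay in the first 23.6 kb, on the side of Hoxd13 in RefSeq's order, and the other 106 kb held none. Whether either peak lies at Hoxd13 or beyond the Hox genes was not determined. In Hoxc the single peak lay 95.9 kb from the start of the window and 73.9 kb from its end.

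The nearest peaks outside the windows lay well away from their edges. Below Hoxa the nearest was 130 kb away, and above it 30.5 kb away. Around Hoxb the distances were 103 kb below and 265 kb above, around Hoxc 130 kb below and 101 kb above, and around Hoxd 40.0 kb below and 45.9 kb above. Of these 8 outside peaks, the unadjusted p-values of the edgeR test lay between 0.30 and 0.852. The first members inside lay 15.02 kb from the lower edge of Hoxa and 5.84 kb from that of Hoxd.

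The Hox peaks were narrow and of ordinary to low height. Their length ranged from 146 to 1716 bp with a median of 282 bp, where all peaks had a median of 364 bp, and 12 of the 20 were shorter than that. The level per kb ranged from 10.7 to 29.5 CPM with a median of 18.3, where all peaks had a median of 19.5. Of the 20, 14 were below the median of all peaks and 2 were above its upper quartile, Peak_43963 and Peak_43972, both in Hoxa. Only Peak_9848 of Hoxb was longer than 1000 bp.

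No Hox peak passed the test for a difference between mandible and femur monocytes. In edgeR's quasi-likelihood test across all peaks, 0 of the 20 Hox peaks passed an adjusted p-value of 0.05, against 0.00701% of all 57090 peaks. At an unadjusted p-value under 0.05 the count was again 0 of 20, against 2.72% of all peaks. DESeq2 gave 0 Hox peaks at both thresholds, against 0.021% and 2.81% of all peaks. It gave no adjusted p-value to some Hox peaks, among them Peak_43964, Peak_43971 and Peak_9844. These could not pass its adjusted threshold, and the 0.021% is of all 57090 peaks, with or without such a value. With the batch as a replicate block the count stayed 0 at both, against 0.116% and 3.08% of all peaks. Without femur replicate 2, the library that stood apart, it was 0 against 0.0438% and 1.37%. Without femur replicate 1 it was 0 against 4.79% at the adjusted threshold and 2 against 16.4% at the unadjusted one. With all 4 libraries and loess offsets, every adjusted p-value of a Hox peak was 1.0 in edgeR. The log2 fold change of mandible over femur was above 0 in 9 of the 20 Hox peaks, against 48.9% of all peaks, and ranged from -0.42 to 0.22. Its median was -0.02 over the 20, and -0.0049 over all peaks.

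The precision of these 4 libraries limited how small a difference could be seen. The intervals below are for single peaks, without adjustment for the number of peaks tested. The adjusted threshold was stricter, and 4 of all 57090 peaks passed it. A difference larger than the reach of an interval therefore need not have passed it. The 95% interval of the log2 fold change included 0 in all 20 peaks, and reached 0.37 to 0.76 to either side of the estimate, with a median of 0.58. In 18 peaks the interval lay wholly between -1 and 1. In the other 2, Peak_43971 and Peak_9844, it reached -1.13 and -1.12, so that mandible levels of 0.457 and 0.460 of those in femur lay within the intervals. The highest upper bound of any Hox peak was 0.80, or 1.74-fold higher in mandible. The size of the log2 fold change was below its standard error in 15 peaks and above it in 5.

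**Figure D2:**
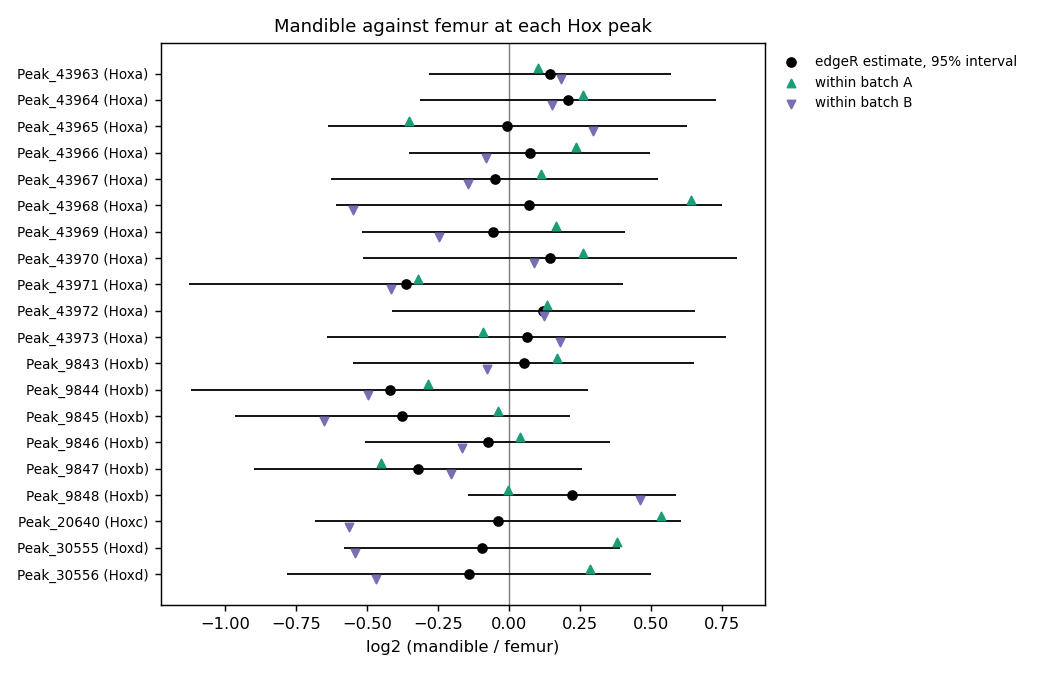
The log2 ratio of mandible to femur for each of the 20 Hox peaks. Black points are edgeR estimates with their 95% interval, upward triangles are the ratio within batch A and downward triangles that within batch B. Every interval crosses 0, and the estimates lie between -0.42 and 0.22.

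Hoxa held the peaks with the highest level per kb. Peak_43963, at chr6:52135024-52135590, had the most, 29.5 CPM per kb. Its CPM was 14.9 and 16.8 in femur replicates 1 and 2 and 15.98 and 19.11 in the mandible replicates. The groups overlapped, and the log2 fold change was 0.14 (standard error 0.20). Peak_43972, at chr6:52217429-52217665, was next with 29.0 CPM per kb. It had 5.73 and 7.41 CPM in femur and 6.28 and 8.05 in mandible, and the sites differed by 0.12 on the log2 scale (standard error 0.25). In both peaks the replicate 2 library was the higher one at each site.

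The longest Hoxa peak was Peak_43966, 662 bp at chr6:52168752-52169413, the peak that stands alone in the middle of the cluster. It had 14.6 and 17.3 CPM in femur and 17.2 and 16.4 in mandible, and the estimate was 0.07 (log2, standard error 0.20). Peak_43969, 604 bp at chr6:52198323-52198926, had 11.3 and 14.7 CPM in femur and 12.7 and 12.4 in mandible. In both peaks the mandible libraries lay between the femur libraries.

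Peak_43964, at chr6:52135695-52136003, was the Hox peak in which both mandible libraries lay above both femur libraries. Its CPM was 5.44 and 5.32 in femur, or 5.38 ± 0.0855 (SD, n = 2), and 6.51 and 5.90 in mandible, or 6.21 ± 0.428 (SD, n = 2). The estimate was 0.21 on the log2 scale, with a standard error of 0.25 and an adjusted p of 1.0 in edgeR. Over all peaks, 13.5% had both mandible libraries above both femur libraries, and 1 of the 20 Hox peaks did. In either direction the sites did not overlap in 4 of the 20, against 27.1% of all peaks.

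Peak_43971, 146 bp at chr6:52211183-52211328, was the lowest and shortest Hox peak, with 41 counts in mandible replicate 2 and 54 in mandible replicate 1. It had 2.26 and 2.25 CPM in femur and 1.81 and 1.69 in mandible, so the groups did not overlap. The estimate was -0.37 on the log2 scale, with a standard error of 0.36 and an adjusted p of 1.0 in edgeR. The interval of this peak, from -1.13 to 0.40, was the widest of the 20.

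The remaining 5 Hoxa peaks had a CPM of 2.45 to 10.5 and log2 fold changes from -0.05 to 0.14. Peak_43967, at chr6:52188433-52188837, had 6.34 CPM in femur replicate 1 and 10.5 in femur replicate 2. In mandible it had 6.84 and 9.51 CPM, so the batches differed more than the sites. Peak_43973, at chr6:52223412-52223723, was the Hoxa peak nearest to the posterior end, with 2.72 and 4.19 CPM in femur and 2.55 and 4.75 in mandible. It too was higher in both libraries of batch B. Peak_43968, at chr6:52194468-52194683, had 2.60 and 3.59 CPM in femur and 4.05 and 2.45 in mandible, with the order of the sites opposite in the 2 batches. Peak_43965, at chr6:52137193-52137382, had 3.47 and 3.22 CPM in femur and 2.71 and 3.96 in mandible.

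Over the whole of Hoxa, the summed CPM of the 11 peaks was 71.9 and 89.3 in femur and 79.7 and 88.3 in mandible. The log2 difference was 0.07, and the exact two-sided permutation test over the 4 libraries gave p = 1.0, where 0.333 is the smallest p that 2 against 2 can give. The groups overlapped, and the mandible libraries lay between the femur libraries.

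Hoxb was led by a broad region at its last peak. Peak_9848, 1716 bp at chr11:96208443-96210158, had the most counts of all Hox peaks, 1328 and 1813 in femur and 943 and 896 in mandible. After normalization it had 30.2 and 23.6 CPM in femur and 30.1 and 32.6 in mandible. Femur replicate 2 was low, and the other 3 libraries lay close together. The log2 fold change was 0.22 (standard error 0.17), the highest of the 20. It was 0.05 without femur replicate 2 and 0.41 without femur replicate 1.

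The share of Hoxb counts that fell in Peak_9848 showed the same library apart, without any normalization. The share was 37.6% in femur replicate 2, whereas it was 50.2% in the other femur library and 52.4% and 52.6% in those of mandible. The other 5 Hoxb peaks made up the rest, and Peak_9846, 963 bp at chr11:96202029-96202991, took 25.6% and 31.3% in femur, and 26.3% and 27.5% in mandible. Both long peaks together carried most Hoxb reads in every library.

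The 4 most negative estimates among the Hox peaks were those of Peak_43971 and of 3 Hoxb peaks. Peak_9844, 184 bp at chr11:96185446-96185629, had 2.46 and 3.62 CPM in femur and 2.02 and 2.56 in mandible, for an estimate of -0.42 (log2, standard error 0.33), and the groups overlapped. Peak_9845, at chr11:96193968-96194189, had 3.90 and 5.65 CPM in femur and 3.79 and 3.59 in mandible, for an estimate of -0.38 (log2, standard error 0.28), with no overlap. Its lower level in mandible was almost all from batch B, where it was -0.65 on the log2 scale, against -0.04 in batch A. Peak_9847, at chr11:96205603-96205988, had 4.41 and 4.79 CPM in femur and 3.22 and 4.15 in mandible, for an estimate of -0.32 (log2, standard error 0.27), also with no overlap. It was the lowest Hox peak per kb, with 10.7 CPM. The adjusted p-value of each was 1.0 in edgeR. Peak_9843, at chr11:96169700-96169888, had 3.40 and 3.41 CPM in femur and 3.82 and 3.23 in mandible. Over all Hox peaks, 3 had both mandible libraries below both femur libraries, or 15% of the 20, against 13.6% of all peaks.

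Summed over the 6 Hoxb peaks, the CPM was 59.5 and 60.4 in femur and 58.5 and 63.2 in mandible, the narrowest spread of the 4 clusters relative to its level. The log2 difference was 0.02 (exact permutation test, two-sided p = 1.0). The lower level of Peak_9848 in femur replicate 2 was offset in this sum by its neighbours.

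The single Hoxc peak, Peak_20640, 193 bp at chr15:102895938-102896130, had 131 and 390 counts in femur and 125 and 77 in mandible. Its CPM was 2.90 and 4.53 in femur, or 3.72 ± 1.16 (SD, n = 2), and 4.19 and 3.06 in mandible, or 3.63 ± 0.798 (SD, n = 2). The log2 fold change was -0.04 (standard error 0.31). Mandible was higher in batch A, by 0.53 on the log2 scale, and lower in batch B, by the log2 difference of -0.57, so the batches went opposite ways and the groups overlapped.

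The Hoxd peaks followed the same pattern across libraries. Peak_30555, 764 bp at chr2:74485839-74486602, had 12.7 and 18.5 CPM in femur and 16.5 and 12.7 in mandible. Mandible differed from femur by 0.38 (log2) within batch A and by -0.54 within batch B. Peak_30556, 193 bp at chr2:74503426-74503618, had 2.81 and 4.53 CPM in femur and 3.42 and 3.27 in mandible, with differences of 0.28 and -0.47. Both had femur replicate 2 as the highest library, and neither separated the sites. The sum over Hoxd was 15.5 and 23.0 CPM in femur and 19.97 and 15.97 in mandible, a log2 difference of -0.08 (exact permutation test, two-sided p = 1.0).

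**Figure D3:**
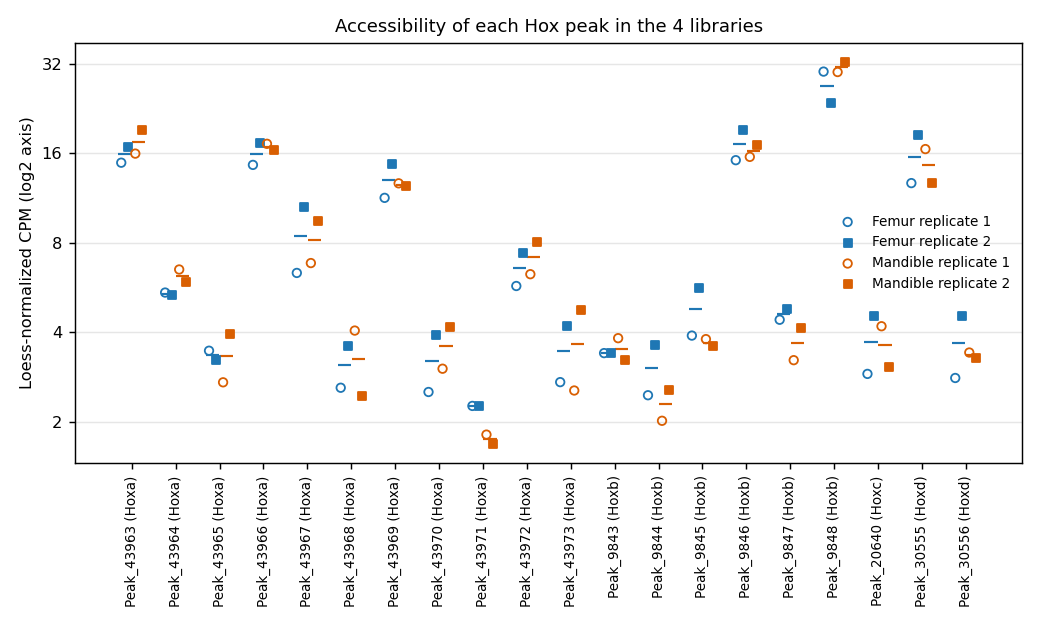
CPM of each Hox peak on a log2 axis in femur replicate 1 (open blue circles), femur replicate 2 (blue squares), mandible replicate 1 (open orange circles) and mandible replicate 2 (orange squares), with a short line at each site mean. Levels run from 1.69 CPM in Peak_43971 to 32.6 CPM in Peak_9848, and in 16 of the 20 peaks both sites overlap.

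Femur replicate 2 stood above femur replicate 1 at most Hox peaks. The log2 difference between these libraries was larger in size than the log2 fold change between the sites in 16 of the 20 Hox peaks, and in 69.6% of all peaks. It was above femur replicate 1 in 16 of 20 Hox peaks, where this held for 50.9% of all peaks after the same normalization. The median log2 ratio of these libraries was 0.37 over the Hox peaks and 0.0079 over all peaks. For the mandible libraries the medians were 0.04 and 0.0078. Femur replicate 2 was the highest of the 4 libraries in 10 Hox peaks, against 33.3% of all peaks, and the lowest in 2, against 32.3% of all peaks. Scaled by total count alone, it was the highest in 17 of the 20, 85.0%, against 47.0% of all peaks.

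Scaled by total count, the ratio of the femur libraries also moved with peak length. In the classes of up to 200, 400, 600, 1000 and 2000 bp, the median log2 ratio of femur replicate 2 to femur replicate 1 on this scale was 0.16, 0.12, 0.07, 0.06 and 0.02 over all peaks, and above 2000 bp it was -0.10. The 6 Hox peaks of up to 200 bp had a median of 0.44 on this scale, the 7 of 200 to 400 bp 0.62, the 2 of 400 to 600 bp 0.52 and the 4 of 600 to 1000 bp 0.40, each above the median of all peaks in its class. Peak_9848, the 1 Hox peak above 1000 bp, had -0.32. After loess normalization the medians of all peaks in the 6 classes lay between -0.029 and 0.035, without that trend. The Hox medians of the 4 shorter classes were then 0.28, 0.46, 0.45 and 0.36, and Peak_9848 had -0.35. The part that fragment length, base composition or the makeup of the isolate had in this library was not tested.

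Batches A and B gave the site difference the same sign in 8 of the 20 Hox peaks, 40%, close to the 42.2% of all peaks. Mandible was higher in batch A in 13 of 20, against 49.6% of all peaks, and in batch B in 7 of 20, against 48.8%. It was higher in A and lower in B in 9 peaks, against 29.3% of all peaks, and lower in A and higher in B in 3, against 28.5%. In 4 peaks it was higher in both batches and in 4 lower in both. Over the Hox peaks, the median log2 difference was 0.12 within batch A and -0.16 within batch B. Without femur replicate 2 the median log2 fold change of the 20 peaks was 0.20, and without femur replicate 1 it was -0.22, so its direction was set by which femur library was kept.

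Several Hoxa peaks were higher in batch B at both sites. In 7 of the 20 Hox peaks, both libraries of batch B lay above both libraries of batch A, which held for 16.8% of all peaks. They were Peak_43963, Peak_43967, Peak_43970, Peak_43972 and Peak_43973 in Hoxa and Peak_9844 and Peak_9846 in Hoxb, a set picked out after its values were seen. In Peak_43970, at chr6:52203046-52203301, the CPM was 2.52 in femur and 3.02 in mandible in batch A, and 3.91 and 4.15 in batch B. The difference between femur and mandible within each batch was smaller than the difference between the batches in this peak.

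**Figure D4:**
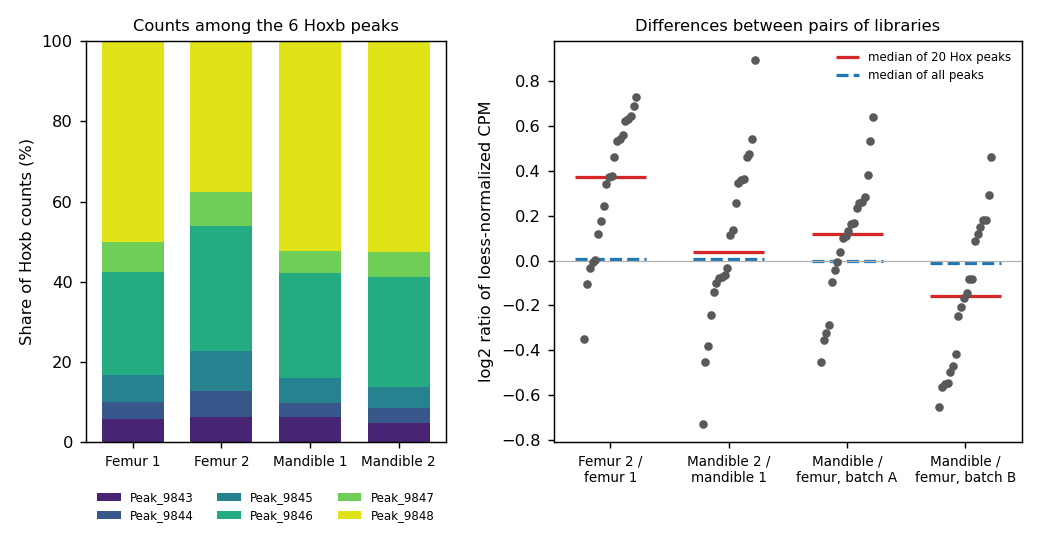
Left, share in percent of the counts of the 6 Hoxb peaks that fell in each peak, per library, where Peak_9848 takes 37.6% in femur replicate 2 and 50.2% to 52.6% in the others. Right, log2 ratios of CPM between pairs of libraries for the 20 Hox peaks (points), with their median (red line) and the median of all peaks (dashed blue line). The Hox median is 0.37 between the femur replicates, 0.12 between the sites in batch A and -0.16 in batch B.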

How the data were processed

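Reads were trimmed by the authors with Trimmomatic, aligned to GRCm39 with Bowtie2 and stripped of low mapping quality and duplicates, and peaks were called with Genrich in ATAC mode on each pair of duplicates and merged across sites with bedtools. The deposited counts, 1 whole number per merged peak and library, were made by the authors with featureCounts 2.0.6, which counted each read of a pair, with no normalization; a shift to the transposase cut site before counting is not stated. Since peaks were called on pairs, their presence in 1 library was not compared.

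The count table was fitted with edgeR 4.0.16 (R 4.3.3, limma 3.58.1): loess offsets per library (pseudocount 0.5), then glmQLFit and glmQLFTest with the site, as the study's methods name, with p-values adjusted by Benjamini-Hochberg across the whole table. The common dispersion was 0.0292 and the default filter removed 0 peaks. The fit was also run on counts simulated with the common dispersion and no batch difference. Those counts held no library that stood apart as femur replicate 2 did, and their outcome is not used as support here. Intervals are at 95%, for the log2 fold change of a peak. Their standard errors were derived from the test, as the size of the log2 fold change over the square root of its F statistic. The intervals are therefore approximate. These standard errors rest on the spread between these libraries, moderated across all peaks, and not on the spread of that peak alone. Cluster sums had an exact permutation test. Replicate numbers mark shared batches of pooled mice per the labels, so they pair the libraries; the correlation of deviations from the site means was -0.172 over all peaks and 0.03 over the Hox peaks.

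The members and lists were chosen with earlier results of these data known. The rule named, per cluster, the peaks with the highest level per kb, the fewest counts and the greatest length, and the 5 lowest p-values per direction. Genes outside the clusters, Hox genes next to peaks and peak base composition need GRCm39 positions and were not analysed here. DESeq2 1.42.0, TMM, total-count scaling, filters, thresholds, a replicate block and left-out libraries were alternatives.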

Additional observations from a re-analysis of the deposited data

How the results depend on the processing

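At an adjusted p-value under 0.05, 0 Hox peaks were higher and 0 lower in mandible in every one of the 11 alternatives and at thresholds of 0.01 and 0.1. The lowest adjusted p-value of a Hox peak was 0.84 with all 4 libraries and 0.195 with a library left out. DESeq2 gave some of the 20 peaks no adjusted p-value, so these could not pass there. In the main fit 0.00701% of all peaks passed the 0.05 threshold, so a count of 0 does not set the Hox peaks apart. No share over all peaks is given for TMM, total-count scaling, the filters, the crossed pairing, left-out mandible libraries or the other thresholds. With the replicate block the count stayed 0, against 0.116% of all peaks, and no sign changed. A crossed pairing also gave 0. It was added after seeing the data, because same-numbered libraries tended to deviate in opposite ways over all peaks (correlation -0.172). Over the Hox peaks they did not (correlation 0.03). At an unadjusted p-value under 0.05 there were 0 in each direction, except without femur replicate 1, with 1 higher (Peak_9848) and 1 lower (Peak_9845), 10.0% of the 20 against 16.4% of all peaks. Where a site is left with 1 library, that library is assumed to vary like the others. Without femur replicate 2 the count was 0, against 1.37% of all peaks. A difference within the reach of the intervals given could not be told from 0. A larger one need not have passed the adjusted threshold.

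The median log2 fold change of the Hox peaks was between -0.22 and 0.20 when single libraries were left out, and with the same omissions -0.14 to 0.24 in Hoxa, -0.31 to -0.0046 in Hoxb, -0.32 to 0.33 in Hoxc and -0.39 to 0.23 in Hoxd. The Hoxa median, 0.07, was -0.060 with TMM, -0.17 with total count alone and -0.051 with DESeq2. The Hoxb median, -0.20, was -0.37 with total count alone, which moved the median of all peaks to -0.12. Summed log2 differences with a library left out ran from -0.090 to 0.22 in Hoxa, -0.035 to 0.077 in Hoxb, -0.34 to 0.31 in Hoxc and -0.37 to 0.20 in Hoxd. With total count alone the summed differences were -0.071 in Hoxa, -0.071 in Hoxb, -0.25 in Hoxc and -0.20 in Hoxd. The cause was not tested.

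Of 220 combinations of peak and alternative, 34 changed the sign of an estimate, none of which had passed a threshold. With total count alone, Peak_43966 had -0.013, Peak_43968 -0.18, Peak_43970 -0.11, Peak_43972 -0.057, Peak_43973 -0.19 and Peak_9843 -0.18. With TMM, Peak_43968 had -0.071, Peak_43970 -0.0019, Peak_43973 -0.085 and Peak_9843 -0.080. With DESeq2, Peak_43968 had -0.060, Peak_43973 -0.068 and Peak_9843 -0.070. With a library left out, the ranges were -0.30 to 0.25 for Peak_43965, -0.045 to 0.20 for Peak_43966, -0.38 to 0.37 for Peak_43967, -0.31 to 0.38 for Peak_43968, -0.23 to 0.15 for Peak_43969, -0.14 to 0.50 for Peak_43970, -0.068 to 0.33 for Peak_43972, -0.44 to 0.45 for Peak_43973, -0.061 to 0.16 for Peak_9843, -0.24 to 0.11 for Peak_9846, -0.32 to 0.33 for Peak_20640, -0.34 to 0.21 for Peak_30555 and -0.44 to 0.26 for Peak_30556. The cause was not tested.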
